A study of Mus musculus with 12 samples.

Results

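Integrins and laminins are the receptors and the ligands of cell adhesion to basement membranes, and their genes were read here in single mouse embryos that lack Tgif1 and Tgif2 by label. The members were all rows of the deposited count table whose symbol is an integrin alpha gene, an integrin beta gene numbered 1 to 8, or a laminin alpha, beta or gamma chain gene. This gave 37 of 23284 genes, namely 18 integrin alpha, 8 integrin beta and 11 laminin genes. The table holds 12 whole embryos, each sequenced alone, at 9.0 days post coitum and about 9 to 10 somites, with C57BL/6 x 129Sv as the strain background. The labels place 8 embryos in a group null for Tgif1 and Tgif2, with CDKO in their titles, and 4 in a wild-type (WT) group. The series text calls the mutants conditional, but the sources used here do not name the Cre line or the cells in which it acts. No transgene or treatment is named for the wild-type group.

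A laminin is a secreted trimer of 1 alpha, 1 beta and 1 gamma chain that polymerises into the basement membrane sheet. An integrin is a membrane receptor of 1 alpha and 1 beta subunit, and the pair decides which matrix protein is bound. Embryos of this age build basement membranes around the neural tube, somites, heart, vessels and surface ectoderm, and the trimer of the Lama1, Lamb1 and Lamc1 chains is the classic laminin of early embryos.

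The libraries held 16802367 to 21346245 counts in CDKO embryos and 17296017 to 20080786 counts in WT embryos. Tgif1 stood at 6.2 ± 0.528 CPM (counts scaled to library size) in CDKO embryos (SD, n = 8) and at 60.9 ± 2.52 CPM in WT embryos (SD, n = 4). Tgif2 was not lower, at 97.9 ± 11.8 CPM in CDKO embryos and 87.3 ± 1.17 CPM in WT embryos. Gene-wide counts can miss a partial deletion, and only the labels give the Tgif2 genotype. Heart, endothelial, surface ectoderm and yolk sac endoderm markers were read in all 12 embryos. The adult globin genes Hba-a1, Hba-a2 and Hbb-b1, listed among the red cell markers, were at 0 counts in every embryo. The annotation and the handling of multi-mapping reads were not given, so these zeros cannot be read as absent RNA. CDKO embryo 6 held Prl8a2, a decidual prolactin gene, at 35.9 CPM and Prl3d1, a trophoblast giant cell gene, at 7.23 CPM. The highest values in the other CDKO embryos were 0.41 CPM for Prl8a2 and 0.77 CPM for Prl3d1, and in WT embryos they were 0.299 and 0.0997 CPM. CDKO embryo 2 had 7.43 CPM of Cdx2, a posterior and trophoblast regulator, whereas the remaining CDKO embryos had 33.9 to 82.5 CPM and WT embryos 83.1 to 94.2 CPM. In whole embryos, fewer cells of a type and less RNA per cell cannot be told apart.

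More members were higher in CDKO embryos than lower. Of the 37 members 33 passed the count filter and were tested across all genes with edgeR's quasi-likelihood test, with a Benjamini-Hochberg adjusted p under 0.05 as the threshold. Of these 15 rose and 3 fell in CDKO embryos, and 15 did not pass. Rises made up 45.5% of the members tested, against 26.6% of the 14412 genes tested over the whole table. Falls made up 9.09% of the members, against 24.9% of all genes. The share that changed in either direction, 54.5%, was near the 51.5% over all genes, so the number of members that changed is not particular to them. The groups did not overlap in 13 of the 33 members, and in 34.7% of all genes. The median log2 fold change, CDKO minus WT, was 0.26 over the members and 0.01 over all genes. These counts cover members that passed the filter, and Itgb2 passed it through CDKO embryos alone. Itgb7, 1 of the 3 that fell, reached the filter level in 3 WT embryos and 1 CDKO embryo. Without CDKO embryo 2 and WT embryo 1, which stood apart in earlier work on these data, 13 members rose and 3 fell. Without CDKO embryo 6 there were 14 rises and 2 falls.

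**Figure D1:**
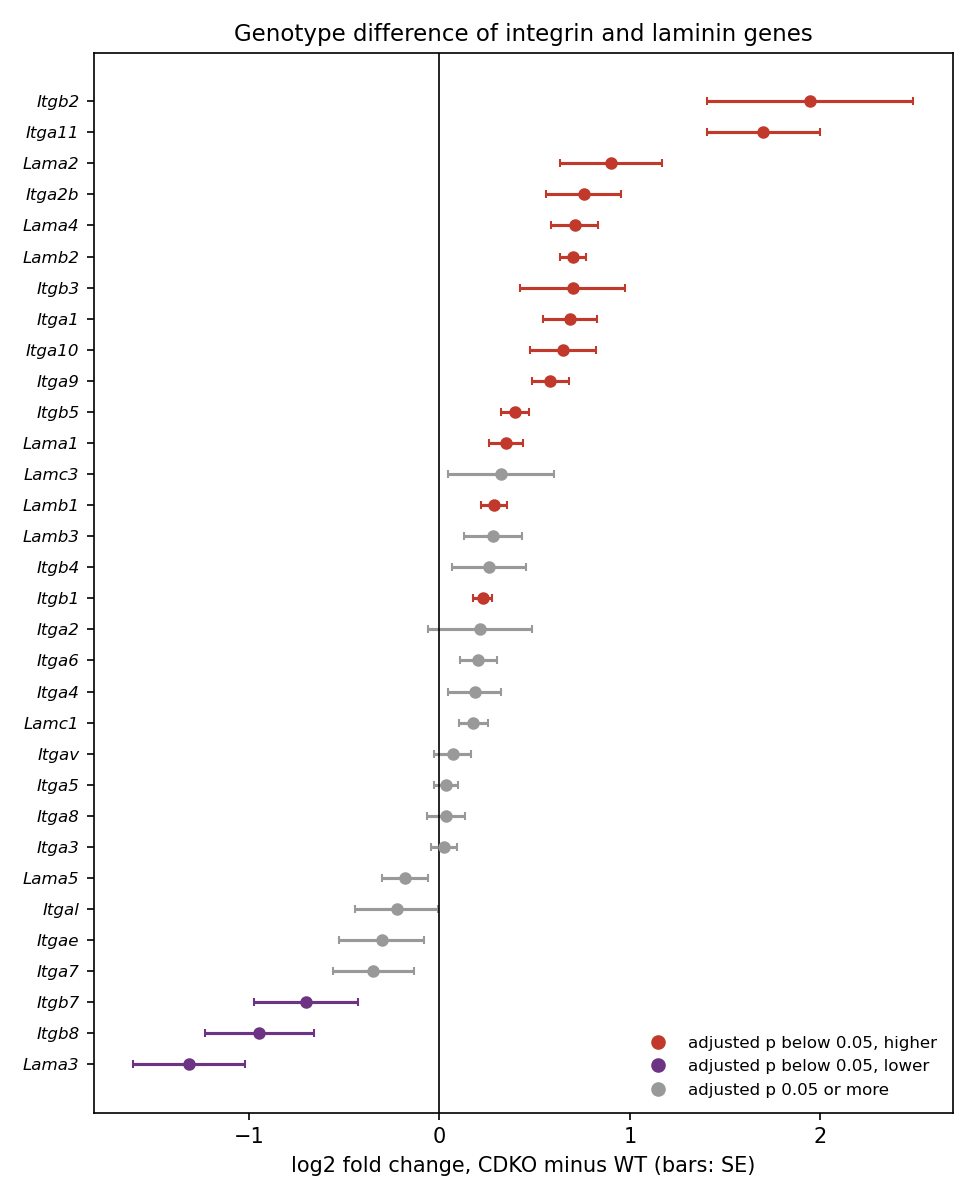
Log2 fold change of the members described one by one, CDKO minus WT (x axis), with bars of 1 SE and members ordered by size. The members that rose lie right of 0, from Itgb1 at 0.23 to Itgb2 at 1.95, and the 3 that fell are Itgb7, Itgb8 and Lama3.

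RefSeq promoter windows of GRCm38.p6, from 250 bases before to 50 bases after a gene's start, were matched by symbol for 23 of the 37 members. They were searched on both strands for TGACAG, a homeodomain core that Tgif proteins bind. The hexamer stood in 7 of 26 windows, which belong to 6 members, and in 19.2% of the 32851 windows of all genes. Among the 6 members, Itga11, Itga2b, Itgb5 and Lama2 rose, Itga8 did not pass the test and Itgb6 was too low to test. The stretches of the 4 that rose are printed 5′ to 3′ on the gene's strand, with the hexamer or its reverse complement in capitals. A match is a description of the letters and not a binding site.
Itga11, chr9:62677803-62677854, plus strand: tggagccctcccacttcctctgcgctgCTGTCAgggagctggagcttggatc
Itga2b, chr11:102469982-102470041, minus strand: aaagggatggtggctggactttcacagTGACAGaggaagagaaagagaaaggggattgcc
Itgb5, chr16:33829522-33829581, plus strand: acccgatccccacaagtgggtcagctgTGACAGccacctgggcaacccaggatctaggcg
Lama2, chr10:27616991-27617050, minus strand: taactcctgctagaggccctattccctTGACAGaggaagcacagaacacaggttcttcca
The match lies 25 bases before the start in Itga11, 131 in Itga2b, 116 in Itgb5 and 81 in Lama2. Of 10 members that rose and have a window, 6 do not hold these letters (Itga1, Itga10, Itga9, Itgb1, Lamb1 and Lamb2), nor do Itgb8 and Itgb7, which fell.

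All 11 laminin genes were tested, and 6 rose, 1 fell and 4 did not pass. Rises made up 54.5% and falls 9.09%, against 26.6% and 24.9% of all genes. Among the chains that rose were Lama1, Lama2, Lama4, Lamb1 and Lamb2, and the chain that fell was Lama3. Lamb2 was 1.63-fold higher in CDKO embryos.

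Among the alpha chains, Lama1, the alpha chain of the early embryonic laminin, lay at 141, 159 and 204 CPM in CDKO embryos (lowest, median and highest), against 119, 135, 132 and 131 CPM in WT embryos 1 to 4. Every CDKO embryo lay above every WT embryo, and the log2 fold change was 0.35 (SE 0.09, adjusted p = 0.00437). Lama4, a chain of endothelial basement membranes, lay at 45.3, 56.2 and 72.6 CPM in CDKO embryos, against 36.5, 34.5, 38.8 and 32.1 CPM in WT embryos. The groups did not overlap here either (log2 fold change 0.71, SE 0.12, adjusted p = 0.000249). Lama2, the alpha chain of muscle laminin, lay at 1.88, 5.47 and 6.77 CPM in CDKO embryos, against 1.91, 2.63, 3.45 and 2.74 CPM in WT embryos. CDKO embryo 6 was the lowest of all 12 and the other 7 CDKO embryos lay above every WT embryo (log2 fold change 0.90, SE 0.27, adjusted p = 0.0114). Without CDKO embryo 2 and WT embryo 1 Lama2 did not pass (log2 fold change 0.74, adjusted p = 0.0646).

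Lama3, the alpha chain of epidermal laminin, was the laminin that fell. It lay at 0.286, 0.808 and 1.28 CPM in CDKO embryos, against 1.39, 2.28, 2.65 and 1.35 CPM in WT embryos. The groups did not overlap, but the level was low, at 6 to 26 counts in a CDKO library and 24 to 46 counts in a WT library. The log2 fold change was -1.31 (SE 0.29, adjusted p = 0.00165). Lama5, a chain of epithelial and many other basement membranes, did not pass the test, at 150, 207 and 232 CPM in CDKO embryos and at 199, 221, 226 and 241 CPM in WT embryos (log2 fold change -0.18, SE 0.12, adjusted p = 0.224). CDKO embryos 6, 7 and 8 held 150, 168 and 152 CPM of Lama5, below every WT embryo. CDKO embryo 2, at 198.7 CPM, lay just under the lowest WT embryo, at 199.4 CPM. CDKO embryos 1, 3, 4 and 5 lay between 216 and 232 CPM. After correction for GC content and length, Lama5 was called lower (log2 fold change -0.32, adjusted p = 0.0036).

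Of the beta chains, Lamb1, the partner of Lama1, lay at 306, 355 and 412 CPM in CDKO embryos, against 274, 297, 296 and 298 CPM in WT embryos (log2 fold change 0.29, SE 0.07, adjusted p = 0.00271). Lamb2, best known from the synaptic cleft and the kidney filter, lay at 62.2, 72.7 and 77.8 CPM in CDKO embryos, against 40.2, 45.8, 44.2 and 44.1 CPM in WT embryos. Both beta chains were separated completely by group, and the Lamb2 difference was the larger one on the log2 scale, at 0.70 (SE 0.07, adjusted p = 8.05e-07). Lamb3, the beta chain of epidermal laminin, averaged 4.44 ± 0.823 CPM in CDKO embryos and 3.66 ± 0.329 CPM in WT embryos (SD, n = 8 and 4) and did not pass (adjusted p = 0.137 in edgeR's test).

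Of the gamma chains, Lamc1, the gamma chain of most laminins, lay at 349, 390 and 495 CPM in CDKO embryos, against 340, 343, 370 and 362 CPM in WT embryos. The groups overlapped and Lamc1 did not pass (log2 fold change 0.18, SE 0.08, adjusted p = 0.0681). It passed without CDKO embryo 7 (adjusted p = 0.0491) or CDKO embryo 8 (adjusted p = 0.0348), and in limma-voom with sample quality weights (adjusted p = 0.00947). Lamc3, a chain of brain and retina, averaged 2.03 ± 0.802 CPM in CDKO embryos and 1.62 ± 0.207 CPM in WT embryos and did not pass (adjusted p = 0.353 in edgeR's test).

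**Figure D2:**
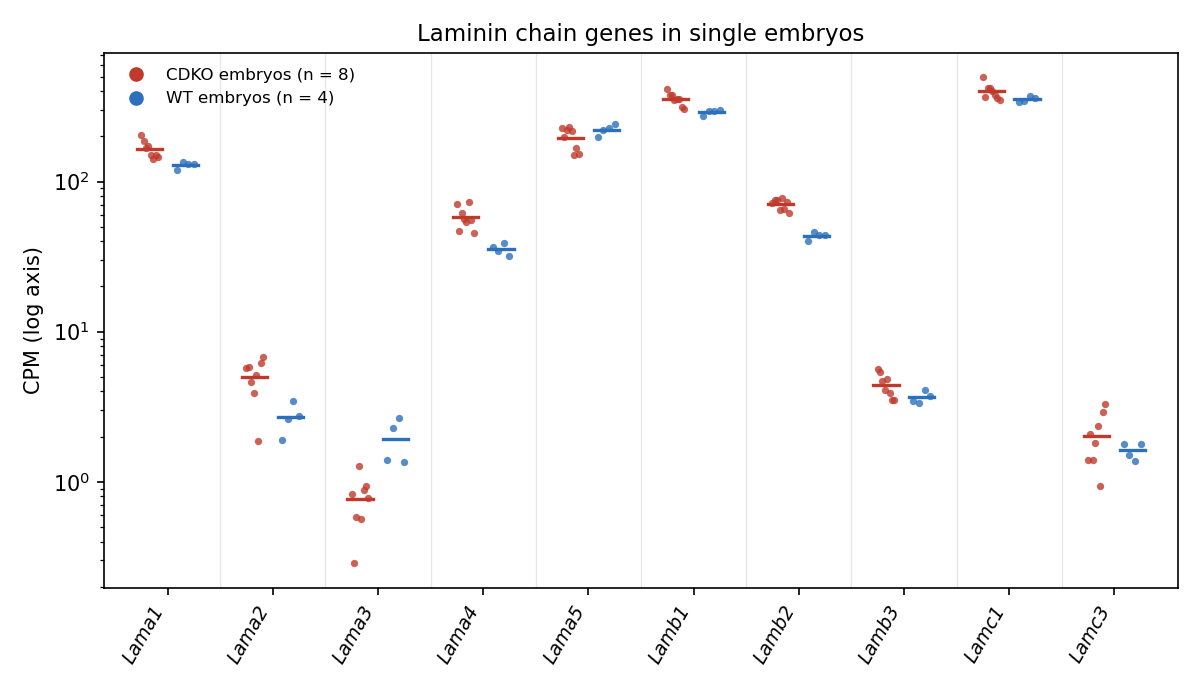
CPM of laminin chain genes (log y axis), each point 1 embryo and each bar a group mean, with 8 CDKO embryos left of 4 WT embryos. The groups are apart for Lama1, Lama3, Lama4, Lamb1 and Lamb2, with Lama3 the chain that is lower in CDKO embryos.

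The makeup of the laminin pool differed between the groups. Per kilobase of exon, Lama1 made up 38.7% ± 2.52 of all alpha chain reads in CDKO embryos and 34.4% ± 0.807 in WT embryos (SD, n = 8 and 4). Lama5 made up 38.3% ± 3.39 in CDKO embryos and 49.5% ± 1.76 in WT embryos. Lama5 was thus the leading alpha chain in WT embryos, at 48.2% to 52.1%, while in CDKO embryos its share of 32.7% to 42.8% overlapped that of Lama1, at 35.7% to 42.9%. Lama4 made up 21.6% ± 3.74 in CDKO embryos and 15.0% ± 1.56 in WT embryos. Lamb2 made up 15.2% to 19.4% of beta chain reads in CDKO embryos and 13.1% to 13.7% in WT embryos, and Lamb1 nearly all the rest. Lamc1 made up over 90.8% of gamma chain reads in every embryo. These shares are a description with no test.

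Ratios of 2 genes within an embryo, which do not depend on library scaling, were compared for 6 pairs by an exact two-sided permutation test with adjustment over the 6 pairs. The smallest p this design allows is 0.00404. The log2 ratio of Lama5 over Lama1 averaged 0.24 ± 0.18 in CDKO embryos and 0.78 ± 0.07 in WT embryos (SD, n = 8 and 4; exact p = 0.00404, adjusted p = 0.0121), lower in 8 of 8 CDKO embryos than in any WT embryo. The log2 ratio of Lamb2 over Lamb1 averaged -2.32 ± 0.13 in CDKO embryos and -2.74 ± 0.03 in WT embryos (exact p = 0.00404, adjusted p = 0.0121), higher in 8 of 8. Both exact p-values are the smallest the design can give. The 6 pairs were chosen with earlier results of these data known, so their p-values add no independent support to the single-gene results. Lama4 over Lama1 averaged -1.51 ± 0.29 in CDKO embryos and -1.86 ± 0.16 in WT embryos and did not pass (exact permutation p = 0.0323, adjusted p = 0.0646). CDKO embryo 2 was the CDKO embryo inside the WT range of that ratio. Without it the pair passed (difference 0.42, adjusted p = 0.0121 by the exact test). That pass followed from the choice of embryo, since the groups then no longer overlap, and it adds no support. With single embryos left out, the adjusted p of the pair ranged from 0.0121 to 0.145 by the exact test.

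**Figure D3:**
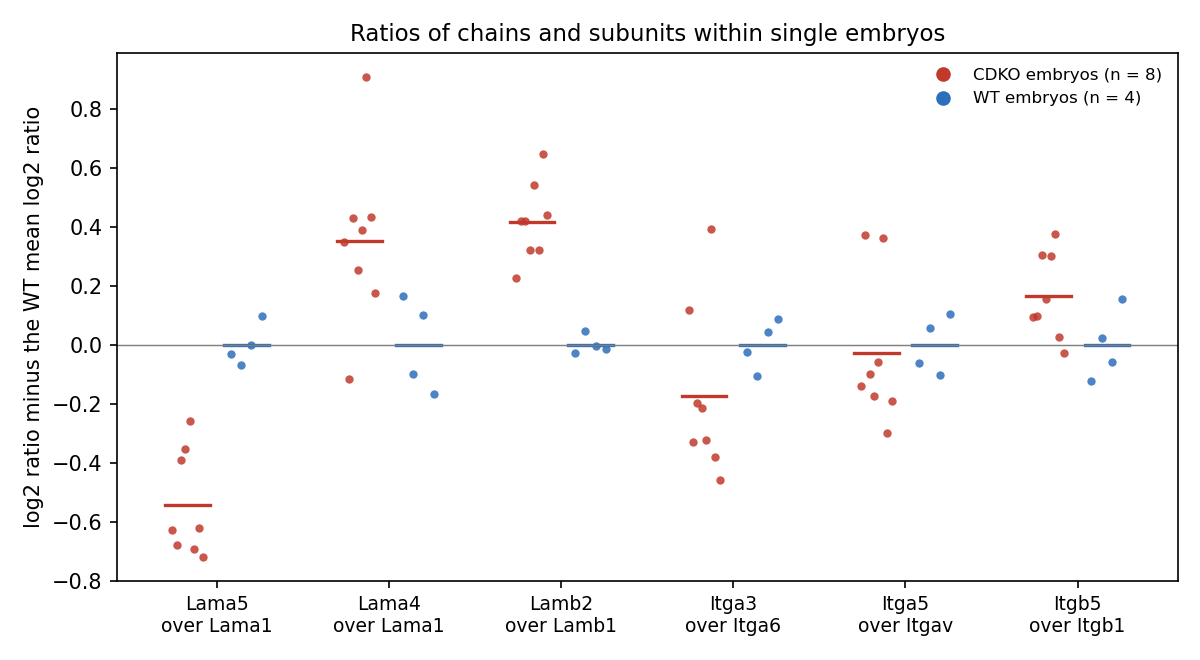
Log2 ratio of 2 genes within each embryo, with the mean of the WT embryos taken as 0 (y axis), for 8 CDKO embryos left of 4 WT embryos. Points are embryos and bars are means; all 8 CDKO embryos lie below WT for Lama5 over Lama1 and above WT for Lamb2 over Lamb1.

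Of the 26 integrin genes 22 were tested, and 9 rose, 2 fell and 11 did not pass. The share called, 50%, was near the 51.5% over all genes. Rises made up 40.9% and falls 9.09%, against 26.6% and 24.9% of all genes. Among alpha subunits 5 of 15 tested rose (33.3%, near the 26.6% over all genes) and 0 fell by edgeR. The count of falls was also 0 at an unadjusted p under 0.05, in DESeq2 and in limma-voom. Among beta subunits 4 of 7 tested rose (57.1%) and 2 fell (28.6%). The 5 that rose, Itga1, Itga10, Itga11, Itga2b and Itga9, were each higher in every CDKO embryo than in any WT embryo. Itga3, Itga5 and Itga6, abundant subunits of laminin and fibronectin receptors, did not pass, nor did the collagen receptor subunit Itga2.

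The laminin receptors use Itga3, Itga6 or Itga7, paired with Itgb1 or, for Itga6, also with Itgb4. Itga3 lay at 125, 143 and 166 CPM in CDKO embryos, against 132, 138, 143 and 143 CPM in WT embryos, and the log2 fold change of 0.02 (SE 0.07) did not pass (adjusted p = 0.805). Itga6 lay at 76.2, 111 and 126 CPM in CDKO embryos, against 91.5, 101, 94.8 and 91.9 CPM in WT embryos. CDKO embryo 6 was the lowest of all 12, while the other 7 CDKO embryos lay above every WT embryo. Itga6 did not pass with all embryos (log2 fold change 0.20, SE 0.10, adjusted p = 0.0987). Without CDKO embryo 6 it did (log2 fold change 0.27, adjusted p = 0.000869 by edgeR). That pass followed from the choice of embryo, since the groups then no longer overlap, and it adds no support. With all embryos Itga6 also passed in limma-voom with sample quality weights (adjusted p = 0.0094). Itga6 shares near-identical sequence with the annotated gene Gm29397, which leaves its counts uncertain. Itga7, the laminin receptor subunit of muscle, was low, at 0.85 ± 0.116 CPM in CDKO embryos and 1.09 ± 0.327 CPM in WT embryos (adjusted p = 0.187 by edgeR). Itgb4, the hemidesmosome subunit, averaged 3.79 ± 0.864 CPM in CDKO embryos and 3.15 ± 0.658 CPM in WT embryos (adjusted p = 0.276 by edgeR). The log2 ratio of Itga3 over Itga6 averaged 0.38 ± 0.29 in CDKO embryos and 0.55 ± 0.08 in WT embryos (exact permutation p = 0.279, adjusted p = 0.335).

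Itgb1 is the shared partner of most alpha subunits and was the most abundant integrin. It lay at 386, 420 and 468 CPM in CDKO embryos, against 366, 353, 386 and 346 CPM in WT embryos. The rise was small, 1.17-fold (log2 fold change 0.23, SE 0.05, adjusted p = 0.00133), and 7 of 8 CDKO embryos lay above every WT embryo. When the test asked for more than a 1.2-fold change, Itgb1, Lama1 and Lamb1 did not pass (adjusted p = 0.855, 0.187 and 0.393).

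Of the 4 collagen receptor alpha subunits, Itga1, Itga10 and Itga11 rose and Itga2 did not pass. Itga1 lay at 7.28, 9.92 and 13 CPM in CDKO embryos, against 5.27, 6.33, 6.91 and 6.08 CPM in WT embryos (log2 fold change 0.68, SE 0.14, adjusted p = 0.000943). Itga10, a cartilage subunit, lay at 2.46, 3.09 and 4.07 CPM in CDKO embryos, against 2.2, 1.52, 2.02 and 2.24 CPM in WT embryos (log2 fold change 0.65, SE 0.17, adjusted p = 0.0056). Itga11, a subunit of mesenchymal cells, lay at 1.04, 2.29 and 2.72 CPM in CDKO embryos, against 0.521, 0.506, 0.864 and 0.598 CPM in WT embryos. In all 3 genes every CDKO embryo lay above every WT embryo. Itga11 had the largest change of the 3 (log2 fold change 1.70, SE 0.30, adjusted p = 0.00023), at 20 to 48 counts in a CDKO library and 9 to 15 counts in a WT library. Itga2 averaged 1.34 ± 0.445 CPM in CDKO embryos and 1.15 ± 0.24 CPM in WT embryos and did not pass (adjusted p = 0.54 by edgeR). Itga10 shares near-identical sequence with Gm42957, and exons of Itga1 overlap those of another annotated gene.

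Itga9 and Itga4 form a subfamily that binds tenascin, VCAM1 and spliced fibronectin. Itga9 lay at 108, 131 and 152 CPM in CDKO embryos, against 68, 94.7, 99.4 and 85.2 CPM in WT embryos, with no overlap (log2 fold change 0.58, SE 0.10, adjusted p = 0.000171). Per kilobase it made up 15.6% ± 1.55 of alpha subunit reads in CDKO embryos and 11.7% ± 1.47 in WT embryos. Itga4 lay at 17.8, 20.4 and 30 CPM in CDKO embryos, against 21.7, 15.8, 20.2 and 18.4 CPM in WT embryos, and did not pass (log2 fold change 0.18, SE 0.14, adjusted p = 0.278).

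The RGD receptors bind fibronectin, vitronectin and similar ligands. Itga5, the main fibronectin receptor subunit, lay at 104, 114 and 132 CPM in CDKO embryos, against 110, 118, 114 and 115 CPM in WT embryos (log2 fold change 0.03, SE 0.06, adjusted p = 0.681). Itgav, the partner of Itgb3, Itgb5, Itgb6 and Itgb8, lay at 36.2, 45.9 and 55.9 CPM in CDKO embryos, against 44.1, 43.7, 46.9 and 40.9 CPM in WT embryos (log2 fold change 0.07, SE 0.10, adjusted p = 0.571). Itga8, a receptor subunit for nephronectin, averaged 27.8 ± 4.14 CPM in CDKO embryos and 27.2 ± 0.761 CPM in WT embryos (adjusted p = 0.802 by edgeR). The CDKO values of these 3 genes fell on both sides of the WT embryos. The log2 ratio of Itga5 over Itgav averaged 1.35 ± 0.25 in CDKO embryos and 1.38 ± 0.10 in WT embryos (exact permutation p = 0.844, adjusted p = 0.844).

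Among the beta partners of Itgav, Itgb5, a vitronectin receptor subunit, rose and Itgb8, a subunit that activates latent TGF-beta, fell. Itgb5 lay at 115, 133 and 151 CPM in CDKO embryos, against 93.4, 99.7, 103 and 107 CPM in WT embryos, with no overlap (log2 fold change 0.40, SE 0.07, adjusted p = 0.000311). It shares near-identical sequence with Gm38317. The log2 ratio of Itgb5 over Itgb1 averaged -1.68 ± 0.15 in CDKO embryos and -1.85 ± 0.12 in WT embryos and did not pass (exact permutation p = 0.0727, adjusted p = 0.109). With single embryos left out, the adjusted p of that pair ranged from 0.0485 to 0.309 by the exact test. The lowest, which passed, came without WT embryo 4, the WT embryo with the highest ratio (difference 0.22).

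Itgb8 lay at 1.82, 4.09 and 7.21 CPM in CDKO embryos, against 6.78, 8.46, 8.64 and 8.87 CPM in WT embryos. The log2 fold change was -0.95 (SE 0.29, adjusted p = 0.0131), and 7 of 8 CDKO embryos lay below every WT embryo. The CDKO embryos were spread widely, with a coefficient of variation of 44.7% against 11.7% in WT embryos. CDKO embryos 7 and 8 held 6.52 and 7.21 CPM, close to WT, and CDKO embryos 2 and 6 held 2.14 and 1.82 CPM. Itgb6, the other subunit known for activating latent TGF-beta, was too low to test, with 42 counts over the 8 CDKO libraries and 14 counts over the 4 WT libraries.

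Itga2b and Itgb3 form the fibrinogen receptor of megakaryocytes and platelets, and Itgb3 also pairs with Itgav. Itga2b lay at 14.1, 9.43, 7.63, 8.83, 9.7, 17.9, 13.5 and 10.8 CPM in CDKO embryos 1 to 8, against 6.6, 6.79, 7.02 and 6.73 CPM in WT embryos. All 8 CDKO embryos were above WT, most of all embryos 1, 6 and 7 (log2 fold change 0.76, SE 0.20, adjusted p = 0.00502). Itgb3 lay at 18.9, 9.57, 7.87, 7.45, 9.7, 13.2, 20.7 and 16.2 CPM in CDKO embryos 1 to 8, against 8.34, 8.56, 7.43 and 7.53 CPM in WT embryos. Embryos 1, 7 and 8 were the highest, while embryos 3 and 4 lay within the WT range. Itgb3 passed narrowly (log2 fold change 0.70, SE 0.28, adjusted p = 0.0479). The platelet gene Pf4 was highest in the 3 embryos with the most Itgb3. CDKO embryo 6, with the most Itga2b at 17.9 CPM, had 0 CPM of Pf4. Pf4 was at 0.883, 4.72 and 2.8 CPM in CDKO embryos 1, 7 and 8, at 0 to 0.116 CPM in the other CDKO embryos and at 0 to 0.0576 CPM in WT embryos. Its part in the Itga2b and Itgb3 results was not tested. The Itgb3 call was lost without WT embryo 1, 2, 3 or 4 (adjusted p = 0.0866, 0.081, 0.111 and 0.104), and without CDKO embryo 1, 6, 7 or 8 (adjusted p = 0.0722, 0.0708, 0.0692 and 0.0757). It was also lost in limma-voom (log2 fold change 0.42, adjusted p = 0.124), after correction for GC content and length (adjusted p = 0.0786), with no count filter (adjusted p = 0.0713), against 1.2-fold (adjusted p = 0.143) and without WT embryo 1 and CDKO embryo 2 together (adjusted p = 0.0765). This made 13 of 22 alternatives.

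**Figure D4:**
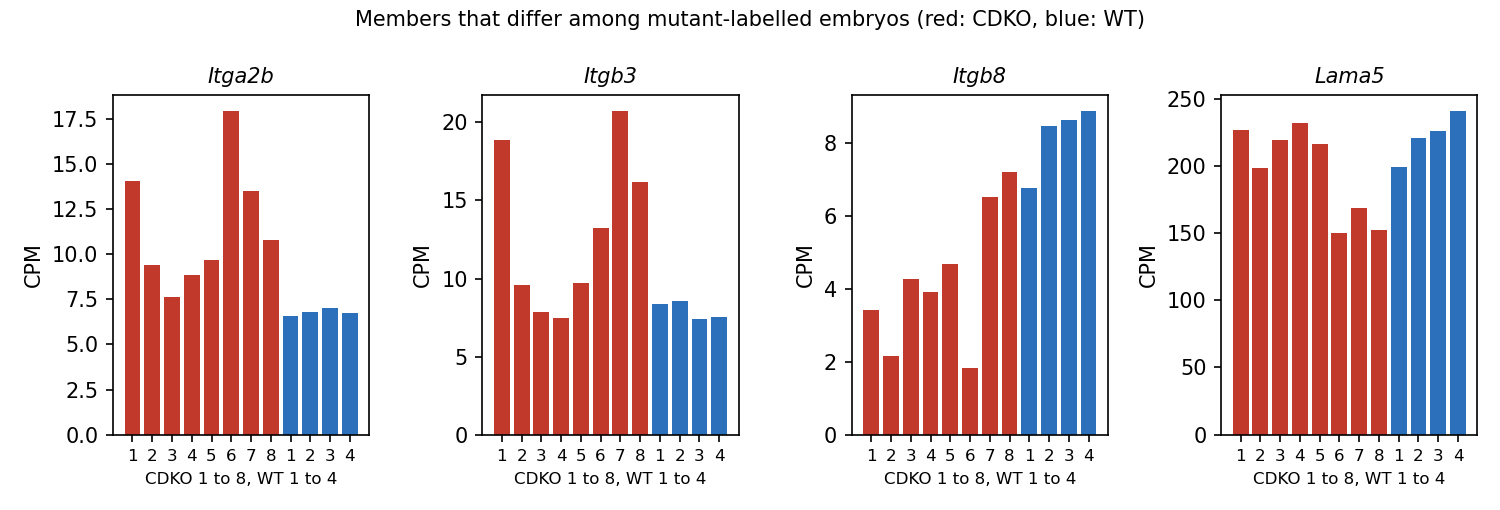
CPM of Itga2b, Itgb3, Itgb8 and Lama5 (y axes) in CDKO embryos 1 to 8 and WT embryos 1 to 4, 1 bar per embryo. CDKO embryos 1, 7 and 8 hold the most Itgb3, CDKO embryos 2 and 6 the least Itgb8, and CDKO embryos 6, 7 and 8 the least Lama5.

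The leukocyte integrins were near the limit of detection. Itgb2, the beta subunit shared by Itgal, Itgam, Itgax and Itgad, had 3 to 20 counts in a CDKO library and 2 to 3 counts in a WT library. It lay at 0.174, 0.443 and 1.04 CPM in CDKO embryos, against 0.116, 0.152, 0.115 and 0.15 CPM in WT embryos (log2 fold change 1.95, SE 0.54, adjusted p = 0.00718). Every CDKO embryo lay above every WT embryo, but no WT embryo reached the level the filter asks for and 4 CDKO embryos did. Without CDKO embryo 1, 6, 7 or 8 Itgb2 fell under the filter, and it shares near-identical sequence with Gm14699. Itgb7, a lymphocyte subunit, had 4 to 11 counts in a CDKO library and 8 to 15 in a WT library, and passed the filter mainly through WT embryos. It lay at 0.231, 0.378 and 0.64 CPM in CDKO embryos, against 0.463, 0.709, 0.864 and 0.548 CPM in WT embryos, with 7 of 8 CDKO embryos below every WT embryo, and was called lower (log2 fold change -0.70, SE 0.27, adjusted p = 0.043). That call was lost in 13 of 20 alternatives in which Itgb7 could be tested, DESeq2 among them (adjusted p = 0.121). It was lost without WT embryo 2, 3 or 4 (adjusted p = 0.107, 0.161 and 0.0525) and without CDKO embryo 1, 2, 3, 4, 5, 6 or 8 (adjusted p = 0.0602, 0.0512, 0.0662, 0.0651, 0.0559, 0.0592 and 0.0557). Itgae and Itgal did not pass (adjusted p = 0.269 and 0.408 by edgeR), at under 1.2 CPM in every embryo. Itgad, Itgam and Itgax were not tested, with 3, 17 and 17 counts over the CDKO libraries and 0, 7 and 3 counts over the WT libraries.

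**Figure D5:**
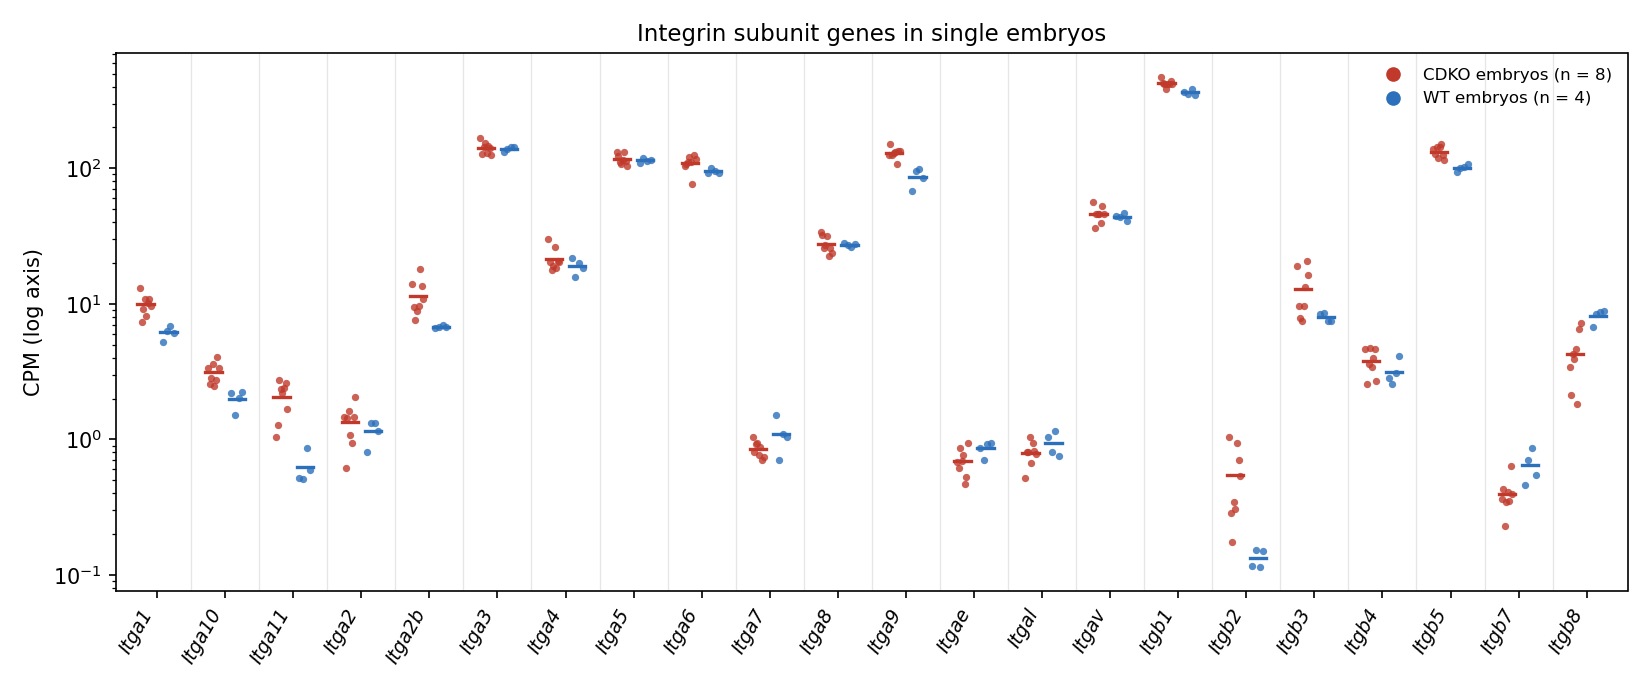
CPM of the 22 integrin genes tested (log y axis), each point 1 embryo and each bar a group mean, with 8 CDKO embryos left of 4 WT embryos. The groups are apart for Itga1, Itga10, Itga11, Itga2b, Itga9, Itgb2 and Itgb5, and Itga3, Itga5, Itga8 and Itgav have CDKO embryos on both sides of WT.

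Partners of laminins in the basement membrane rose more often than they fell. Of 20 tested 10 rose (50%) and 3 fell (15%), against 26.6% and 24.9% of all genes tested. Their median log2 fold change was 0.21, against 0.01 over all genes. Sparc, a collagen-binding matrix protein, averaged 494 ± 61 CPM in CDKO embryos and 265 ± 22.6 CPM in WT embryos (log2 fold change 0.90, SE 0.09, adjusted p = 2.35e-06). Nid1, the nidogen that links laminin to type IV collagen, averaged 156 ± 15.5 CPM in CDKO embryos and 96.0 ± 9.63 CPM in WT embryos (0.70, SE 0.08, adjusted p = 4.7e-06). Bcam, a receptor for Lama5, rose by 0.50 (SE 0.06) and Smoc2, a relative of Sparc, by 1.70 (SE 0.23). The 3 genes that fell, named after their values were seen, were Dag1, Fbln2 and Smoc1, at -0.21, -0.49 and -0.39 on the log2 scale. Dag1 encodes dystroglycan, a laminin receptor that is no integrin.

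Integrin ligands other than laminins included 12 of 21 (57.1%) that rose and 0 that fell by edgeR, against 26.6% and 24.9% of all genes. The falls were likewise 0 at an unadjusted p under 0.05, in DESeq2 and in limma-voom, with 13 rises in each. Their median log2 fold change was 0.48. Fbn1, a microfibril protein with an RGD site, averaged 179 ± 17.4 CPM in CDKO embryos and 70.5 ± 8.64 CPM in WT embryos (log2 fold change 1.34, SE 0.09, adjusted p = 2.34e-08). Mfge8, an RGD protein that bridges cells, rose by 0.87 (SE 0.07), Emilin1, a ligand of Itga9 and Itga4, by 0.87 (SE 0.07), and Npnt, the Itga8 ligand nephronectin, by 0.63 (SE 0.08), each in 8 of 8 CDKO embryos. Itga8 itself did not pass.

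Cytoplasmic partners of integrin tails numbered 20 of 36 that rose (55.6%) and 3 that fell (8.33%), with a median of 0.19. Over all genes 26.6% rose and 24.9% fell. Tgfb1i1, the focal adhesion adaptor Hic-5, averaged 74.8 ± 8.58 CPM in CDKO embryos and 36.8 ± 1.25 CPM in WT embryos (log2 fold change 1.02, SE 0.08, adjusted p = 1.33e-07). Members of the complex around integrin-linked kinase rose too, with Rsu1 at 0.61 (SE 0.06), Parva at 0.54 (SE 0.06) and Ilk at 0.47 (SE 0.05). The 3 that fell, named after their values were seen, were Lims1, a further member of that complex, the focal adhesion kinase gene Ptk2 and Crk, at -0.23, -0.15 and -0.15. After correction for GC content and length, 15 rose and 6 fell, and against a 1.2-fold change 7 rose and none fell.

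The dystroglycan complex and the enzymes that build its laminin-binding sugar went both ways, with 4 of 19 that rose and 6 that fell (median -0.04). These shares, 21.1% and 31.6%, were near the 26.6% and 24.9% over all genes. Among the lowest p-values were those of the glycan genes B3galnt2 (-0.58, SE 0.07) and Pomgnt1 (-0.27, SE 0.06), each lower in 8 of 8 CDKO embryos. The count of rises was 1 without WT embryo 1, WT embryo 2 or CDKO embryo 1, and 2 without WT embryo 4 or CDKO embryo 2, 3, 5 or 7. Of 5 hemidesmosome partners of Itga6 and Itgb4 tested, Plec rose by 0.44 (SE 0.07) and Cd151 by 0.23 (SE 0.08). Krt5 and Dst did not pass, at -0.73 (SE 0.30) and -0.20 (SE 0.11). Without WT embryo 1 or 2, 1 of the 5 rose.

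Markers of some cell types moved with these genes, and their part in the results was not tested. Of 18 endothelial markers 11 rose and 0 fell by edgeR (12 and 0 at an unadjusted p under 0.05, 11 and 0 in DESeq2, 10 and 0 in limma-voom), with a summed level of 784 to 1090 CPM in CDKO embryos and 621 to 739 CPM in WT embryos. Tek rose by 0.90 (SE 0.16), Tie1 by 0.60 (SE 0.10), Flt1 by 0.45 (SE 0.09) and Cdh5 by 0.44 (SE 0.08), beside 0.71 for Lama4. The median log2 fold change of the 18 endothelial markers was 0.34, and 7 of them did not pass. Of 20 heart markers 15 rose, with a summed level of 2765 to 4853 CPM in CDKO embryos and 1812 to 2306 CPM in WT embryos, led by Tnni1 at 1.55 (SE 0.14). Myl4 and Actc1 rose by 0.88 and 0.86, and Tbx5 averaged 26.3 ± 2.8 CPM in CDKO embryos and 13.1 ± 4.23 CPM in WT embryos. Of 17 parietal endoderm, trophoblast and decidua markers tested 10 rose and 1 fell, with a summed level of 1094 to 1849 CPM in CDKO embryos and 912 to 1071 CPM in WT embryos. Krt8 and Krt18, which rose, are also counted in the surface ectoderm list and its summed level. Krt7, Snai1, Elf5, Cdx2, Tfap2c and Ascl2 did not pass. The leading markers of this list, Des (0.94), Gata6 (1.04), Krt19 (0.75) and Hand1 (1.27), are also expressed in the embryo proper. Rises made up 61.1% of the endothelial, 75% of the heart and 58.8% of these last markers tested, against 26.6% of all genes. Falls made up 0%, 0% and 5.88%, against 24.9% of all genes.

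Of 16 surface ectoderm markers 4 rose (25%) and 1 fell (6.25%), against 26.6% and 24.9% of all genes. Their summed level was 1156 to 1779 CPM in CDKO embryos and 1077 to 1231 CPM in WT embryos. Dsp, Krt8 and Perp rose by 0.69, 0.77 and 0.53 and Epcam fell by 0.27 on the log2 scale, beside a fall of Lama3. Of 21 leukocyte and megakaryocyte markers 8 were tested and 2 rose (25%, against 26.6% of all genes). These were Coro1a (2.88, SE 0.12) and Gp1bb (1.66, SE 0.40), while Vwf and Laptm5 did not pass (0.37 and -0.37). The summed level of the list was 210.0 to 234 CPM in CDKO embryos and 175 to 194 CPM in WT embryos. Most of it was F2r, which endothelium also expresses. Ptprc, the pan-leukocyte gene, had 9 counts over the 8 CDKO libraries and 0 counts over the 4 WT libraries. Without WT embryo 2 or CDKO embryo 2, 4 of those markers rose.

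Of 14 primitive red cell markers tested 1 fell (7.14%, against 24.9% of all genes). This was Tal1 (-0.67, SE 0.16), and Klf1 and Epor did not pass (-1.08 and -0.47). The summed level was 53.5 to 1765 CPM in CDKO embryos and 861 to 1413 CPM in WT embryos. The log2 fold change was negative for 13 of the 14, with a median of -0.86. The count of falls depended on the tool, with 2 in DESeq2 and 13 in limma-voom with sample quality weights. Without CDKO embryo 1, 5 fell in edgeR's test, and without CDKO embryo 8, 3 fell. Of 20 yolk sac endoderm markers 0 changed by edgeR, 1 was higher and 0 lower at an unadjusted p under 0.05, DESeq2 called 1 higher and limma-voom called 3 lower. Their summed level was 1200.2 to 4575 CPM in CDKO embryos and 1107 to 3267 CPM in WT embryos. Foxa3, Slc39a8 and Apoc2 had log2 fold changes of 0.78, -0.43 and -1.42, and Afp averaged 412 ± 254 CPM in CDKO embryos and 205 ± 86.3 CPM in WT embryos.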

How the data were processed

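The authors' deposited table gives raw counts of reads for each gene symbol and embryo. The submitters' processing notes name the build mm9 and the tools FastQC, STAR, featureCounts and DESeq2. Tool versions, the gene annotation, strandedness and the handling of multi-mapping reads were not given in the sources used here. Reads of near-identical or overlapping genes cannot be told apart, which bears on Itga6, Itga10, Itgb2 and Itgb5 (copies) and on Itga1, Itga4, Itga7, Itga8, Itgad, Itgam, Itgb4, Lama2, Lama3 and Lamc3 (shared exon bases). Per the labels, RNA was selected for poly-A and read as pairs of 50 bases. No 2 libraries of a group were alike within sampling noise (smallest chi-square 3.89 per degree of freedom, pooled counts of 20 or more). The labels give no litter, date or batch.

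The test was edgeR 4.0.16 (R 4.3.3), by its quasi-likelihood method with TMM scaling, robust dispersions and genotype as the single term, after filterByExpr with a minimum count of 10. Benjamini-Hochberg adjustment covered all 14412 tested genes. Each SE was derived from the log2 fold change and its F statistic. CPM used TMM-scaled library sizes, and lengths per kilobase were joined exons of coding transcripts in GENCODE M21. Near-identical copies shared at least 200 bases at 95% identity. The procedure was tested on simulated data. Alternatives were DESeq2 1.42.0, limma 3.58.1 voom with sample quality weights, scaling by RLE or the upper quartile, other count filters, non-robust dispersions, a test against 1.2-fold, correction for GC content and length with mgcv, and embryos left out.

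The members, gene lists and 6 ratios were chosen with earlier results of these data known. Members are named, with up to 4 genes of lowest p from each list, except for some genes that are counted but not reported singly here. Cdx2, Prl8a2, Prl3d1, Pf4, Ptprc, F2r, Krt18, Krt7, Snai1, Elf5, Tfap2c, Ascl2 and single embryos were named after their values were seen.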

Additional observations from a re-analysis of the deposited data

Results flagged for a closer look

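In 2 of 78 groups of embryos, taken over the members tested and the 6 ratios (2.56%), 1 embryo lay far from the rest by a limit that chance passes in about 1 group in 20. Itga6 in CDKO embryo 6 stood at 76.2 CPM, with the other CDKO embryos at 104 to 126 CPM. Lamb1 in WT embryo 1 stood at 274 CPM, with the other WT embryos at 296 to 298 CPM, and every CDKO embryo lay above all of them.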

How the results depend on the processing

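Of 18 members called, 12 kept their call under every alternative in which they could be tested (10 that rose, 2 that fell), 6 lost it in at least 1, and none changed direction. The 12 include Itgb2, which could be tested in 17 of 22 alternatives and fell under the count filter in the rest, so its call there says nothing about stability. Of 15 not called, 3 passed in at least 1. With single embryos left out, 13 to 15 members rose and 2 to 3 fell, and 3369 to 3896 genes over the whole table rose and 3107 to 3683 fell. Under a stricter count filter of 50, 1 member fell, since the low ones were no longer tested. Against 1.2-fold, 2079 genes rose and 1144 fell over the whole table. After correction for GC content and length, 3281 genes rose and 4568 fell, and 14 members rose and 4 fell.

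With single embryos left out, the difference in log2 ratio ranged from -0.58 to -0.51 for Lama5 over Lama1, 0.38 to 0.45 for Lamb2 over Lamb1, 0.27 to 0.42 for Lama4 over Lama1, 0.13 to 0.22 for Itgb5 over Itgb1, -0.26 to -0.13 for Itga3 over Itga6, and -0.086 to 0.010 for Itga5 over Itgav, which changed sign without WT embryo 4 or CDKO embryo 7. Without WT embryo 1 and CDKO embryo 2 together, Lama4 over Lama1 passed (0.47, adjusted p = 0.0333 by the exact test). This too leaves out the CDKO embryo that lay inside the WT range of that ratio. The cause was not tested. No paired analysis was possible because the labels give no litter, date or batch by which embryos could be matched. Embryos are numbered within each group by their order in the deposited data. Levels under about 1 CPM rest on few counts.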
